A study of Mus musculus with 4 samples.

Results

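The genes described here are 40 nucleolar ribosome biogenesis factors of the mouse: RNA polymerase I subunits and initiation factors, abundant nucleolar proteins, proteins of the small nucleolar ribonucleoproteins (snoRNPs), and rRNA processing factors of the small and the large ribosomal subunit. They were chosen by name, with earlier results of these data known, and all 40 were found by symbol among the 55385 genes of the deposited table. All 40 also passed the filter on low values: genes averaging under 10 normalized counts were left out, which kept 14238 genes to test. RNA came from 4TO7 cells, a mouse mammary carcinoma line, taken from enzymatically digested tumors of Balb/c mice. The resistant group was 2 libraries from tumors resistant to immunotherapy with anti-PD-L1, an antibody against a T cell checkpoint ligand, and the control group was 2 libraries from control tumors. The labels call all 4 samples untreated while their protocol names anti-PD-L1 in vivo, so the treatment of the control tumors is unclear. The comparison asked how tumor cells that had become resistant differed from control cells. Age, number of animals and pooling are not given in the sources used here. Whether 2 libraries of 1 group stem from different mice is not stated, and a p-value here therefore reflects library-to-library spread alone, which may be technical.

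Ribosomes are assembled in the nucleolus. RNA polymerase I transcribes a long precursor rRNA, snoRNPs modify and fold it, and processing factors bound to it cut out the mature rRNAs while ribosomal proteins join. The small subunit processome and the large subunit precursors use separate sets of factors. Many of these genes are direct targets of the transcription factor Myc, and ribosome production is raised in many carcinomas.

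Depth was 45666470 to 49592054 counted reads per library, of which the 40 factors took 0.538% and 0.478% in resistant replicates 1 and 2 and 0.397% and 0.477% in control replicates 1 and 2. In the limma fit across all tested genes, 758 genes rose and 674 fell in resistant cells. The carcinoma keratins Krt8 and Krt18 stood at 12649 normalized counts or more in every library, Krt14 was at 0, and Epcam fell (log2 difference -1.53 ± 0.25, SE; adjusted p = 0.011). Markers of other cells were mostly near 0: the leukocyte antigen gene Ptprc had 2.15 normalized counts or fewer per library, and the red cell genes Hbb-bs and Hba-a1 had 0. The summed level of the 7 leukocyte markers was 9986 to 10577 in resistant and 3232 to 6353 in control libraries, nearly all of it from Cd68, the only 1 of the 7 to be tested and called. The 5 fibroblast markers summed to 7138 and 8491 against 9281 and 6332, the 4 endothelial markers to at most 30.7 and the 3 pericyte markers to at most 166. Most of the fibroblast sum came from Pdgfra, at 5766 to 8504 normalized counts per library, which was not called (0.12 ± 0.19, adjusted p = 0.739). Of the other tested fibroblast markers, Dcn fell (-1.99 ± 0.24, adjusted p = 0.00343) and Col1a1 was not called (0.20 ± 0.69, adjusted p = 0.886). In bulk RNA, a change in the number of cells of a type and a change in RNA per cell cannot be told apart. Whether Cd68 or Dcn has a part in the results on these factors was not tested.

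Most of the 40 factors had slightly higher values in resistant cells, and 3 of them passed the test. Their median log2 difference, resistant minus control, was 0.23, against 0.00 over all tested genes, and 36 of 40 values were above 0, where 50.3% of all tested genes were. The values ran from -0.15 for Rrn3 to 0.62 for Rrp9. 3 factors rose, Rrp9, Ppan and Rrp1b, and none fell. That is 7.5% of the members, where 5.32% of all tested genes rose and 4.73% fell, 10.1% in either direction, so the share called was close to the background. Both resistant libraries lay above both controls for 23 of 40 factors (57.5%), against 28.4% of all tested genes, and below both for 1, against 28.3%. At an unadjusted p under 0.05, 17 factors were higher and 0 lower, with 13.8% and 12.6% of all tested genes in the same classes. A left-out library moved the calls strongly: 0 factors rose in limma without either resistant library, 8 without control replicate 1 and 22 without control replicate 2, and the background moved with them. Without a resistant library it was 1.42% (replicate 1 left out) or 1.03% (replicate 2 left out), and without a control library 12.7% or 14.6% in the same order. With a block for the replicate number 2 factors rose, at a background of 4.41%. With no filter on low values 0 rose as well, at a background of 0.47%.

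**Figure D1:**
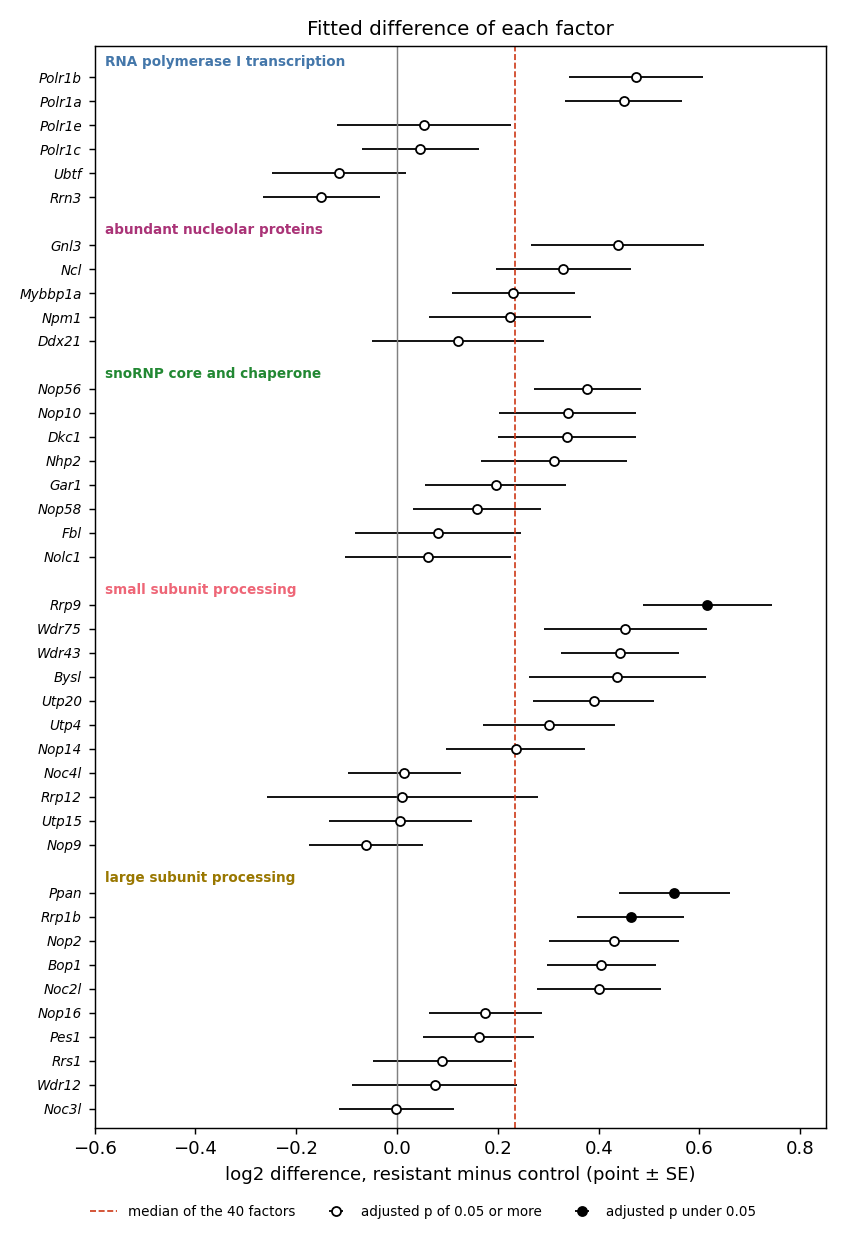
Fitted log2 difference, resistant minus control, of each of the 40 factors (horizontal axis; point and bar, estimate ± SE from limma, 2 libraries a group), ordered by step and value. Filled points mark Rrp9, Ppan and Rrp1b, the 3 with adjusted p under 0.05, and the dashed line is the median of 0.23.

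RNA polymerase I makes the precursor rRNA. Its largest and second largest subunit genes, Polr1a and Polr1b, which together form the catalytic core, were higher in both resistant libraries than in both controls. The other 4 genes of this step overlapped between the groups. The share without overlap, 33.3%, was close to the 28.4% of all tested genes with both resistant libraries above both controls. Polr1a (ENSMUSG00000049553.11, chromosome 6, 71909053 to 71984935, GRCm38) had 6039 and 6092 normalized counts in resistant replicates 1 and 2 and 4088 and 4821 in control replicates 1 and 2. The resistant pair was tight and the control pair was not, and the log2 difference of 0.45 ± 0.12 (SE, n = 2 against 2) missed the threshold (limma adjusted p = 0.0518). Polr1b had 1510 and 1592 against 1027 and 1213, a difference of 0.47 ± 0.13 (adjusted p = 0.0674). Polr1c, a subunit shared with RNA polymerase III, had 3669 and 3534 against 3234 and 3759 (0.05 ± 0.12), and Polr1e, a subunit of the polymerase I specific heterodimer, had 700 and 532 against 601 and 575 (0.05 ± 0.17). The 2 factors that recruit the polymerase had values below 0. Ubtf, the upstream binding factor of rDNA, had 7229 and 7624 against 9045 and 7145 (-0.11 ± 0.13), and Rrn3, which couples the polymerase to its promoter factors, had 4211 and 3785 against 4176 and 4699 (-0.15 ± 0.12). Neither Polr1c, Polr1e, Ubtf nor Rrn3 passed (adjusted p = 0.842, 0.88, 0.634 and 0.46). The step had a median of 0.05 with 0 of 6 called, and its median ran from -0.03 without resistant replicate 1 to 0.16 without resistant replicate 2. The fitted values of its genes lay on both sides of 0, and those below 0, of Ubtf and Rrn3, were of about the size of their SE.

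The abundant nucleolar proteins act at several steps. Per kb of exon, Npm1 and Ncl had the highest levels of the 40 factors, 9103 and 5399 normalized counts per kb over the 4 libraries. Ncl, nucleolin, which binds precursor rRNA and chromatin of rDNA, had 63614 and 58810 normalized counts in resistant and 45071 and 52520 in control libraries, with no overlap, and a log2 difference of 0.33 ± 0.13 (adjusted p = 0.17). Gnl3, nucleostemin, a GTP-binding protein of proliferating cells, had 9523 and 7999 against 5443 and 7632 (0.44 ± 0.17, adjusted p = 0.158), again without overlap but with control replicate 2 close to resistant replicate 2. Mybbp1a, a Myb-binding nucleolar protein, had 19688 and 18703 against 14985 and 17842 (0.23 ± 0.12, adjusted p = 0.279). The other 2 overlapped, so both resistant libraries lay above both controls in 60% of this step, against 28.4% of all tested genes. Npm1, nucleophosmin, a histone chaperone and structural protein of the granular nucleolus, had 28662 and 23534 against 19508 and 25338 (0.22 ± 0.16, adjusted p = 0.425). For Ddx21, an RNA helicase that senses polymerase I and II transcription, control replicate 2 was the highest library: 9165 and 8154 against 6658 and 9494 (0.12 ± 0.17, adjusted p = 0.702). All 5 values of this step were above 0 and none passed, with a median of 0.23, which ran from 0.10 without control replicate 1 to 0.41 without control replicate 2.

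**Figure D2:**
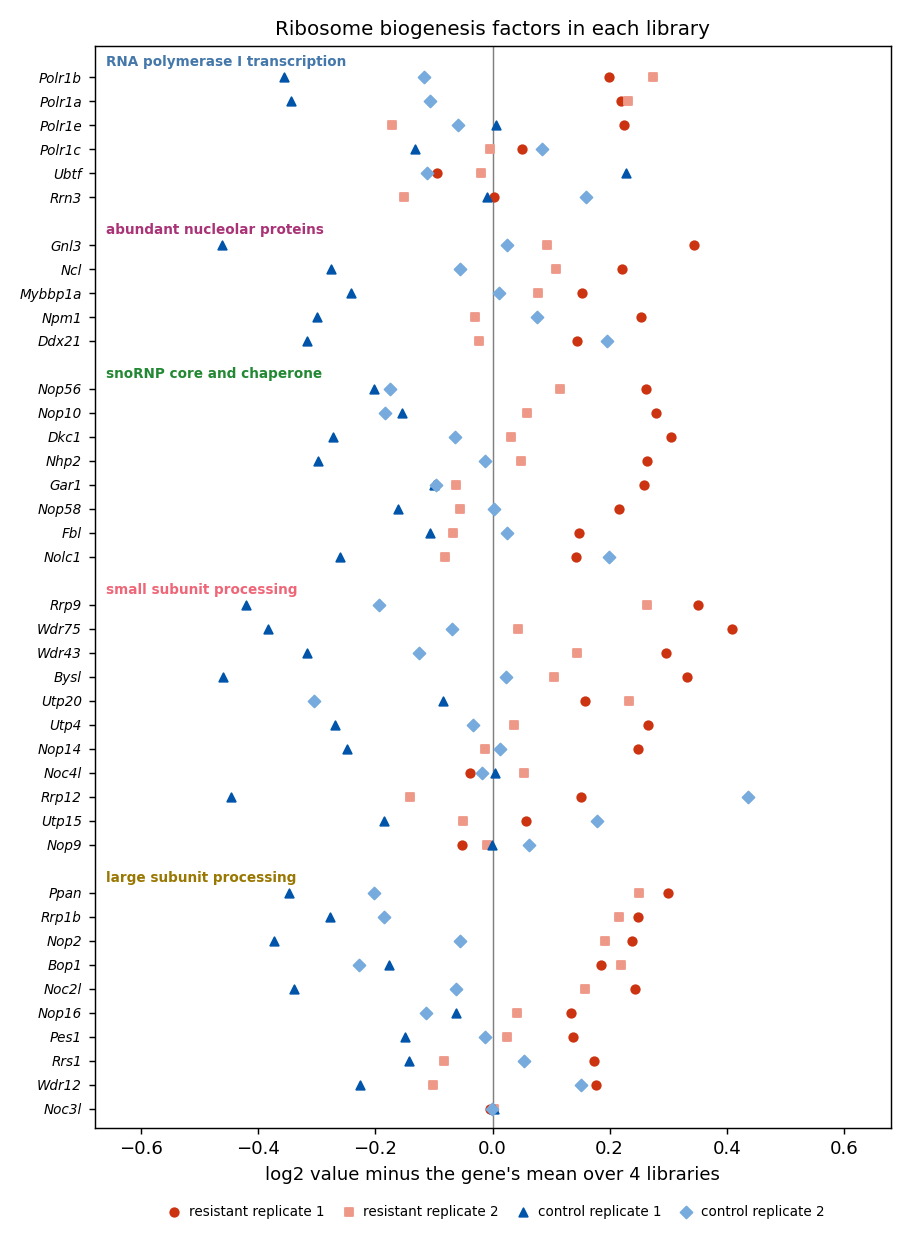
Each of the 40 factors in the 4 libraries, as the log2 value minus that gene's mean over the libraries (horizontal axis), ordered by step and by fitted difference. Control replicate 1 (dark triangles) is mostly the lowest and resistant replicate 1 (dark circles) mostly the highest, with medians of -0.24 and 0.22, while resistant replicate 2 and control replicate 2 have medians of 0.04 and -0.03.

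The snoRNP proteins belong to 2 kinds of particle. Box H/ACA particles pseudouridylate rRNA. All 4 of their core proteins had both resistant libraries above both controls, where 28.4% of all tested genes did. The pseudouridine synthase Dkc1, dyskerin, had 3256 and 2692 normalized counts in resistant and 2182 and 2518 in control libraries (log2 difference 0.34 ± 0.14, adjusted p = 0.168). Its partners had values of 0.31 ± 0.14 (Nhp2), 0.20 ± 0.14 (Gar1) and 0.34 ± 0.14 (Nop10), with adjusted p = 0.221, 0.423 and 0.163. Gar1 had 1808 and 1448 normalized counts against 1410 and 1414, so that resistant replicate 2 lay next to the controls. Nhp2 had 1977 and 1702 against 1338 and 1632, and Nop10 had 1218 and 1046 against 901 and 883. The 4 values lay between 0.20 and 0.34, and none passed. With 1 library left out at a time they ran from 0.04 to 0.36 for Gar1, 0.17 to 0.45 for Nhp2, 0.20 to 0.47 for Dkc1 and 0.23 to 0.45 for Nop10.

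Box C/D particles methylate rRNA. Nop56, a core scaffold protein, had 6103 and 5507 normalized counts in resistant and 4421 and 4503 in control libraries, with no overlap (log2 difference 0.38 ± 0.11, adjusted p = 0.0674). Its paralog and partner Nop58 overlapped, with 8104 and 6712 against 6240 and 6993 (0.16 ± 0.13, adjusted p = 0.478). Fbl, fibrillarin, the methyltransferase of the particle, overlapped too, with 476 and 410 against 399 and 437 (0.08 ± 0.16, adjusted p = 0.8). Fbl was the lowest of the 40 per kb of exon, 102 normalized counts per kb against 1252 for Nop56 and 652 for Nop58. In the GENCODE transcripts, 73.0% of the 50-base stretches of the Fbl transcript also occur in transcripts of another gene, so its reads can be assigned elsewhere or dropped, and its level is uncertain. Nolc1, a chaperone of both kinds of snoRNP, had 6198 and 5306 against 4686 and 6449 (0.06 ± 0.16, adjusted p = 0.853), with control replicate 2 the highest library. Over the 8 snoRNP genes both resistant libraries lay above both controls in 5 (62.5%, against 28.4% of all tested genes). The median was 0.25, with 8 values above 0 and 0 called. That median ran from 0.12 without resistant replicate 1 to 0.39 without resistant replicate 2.

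Small subunit processing held the largest difference of the 40. Rrp9 (ENSMUSG00000041506.15, chromosome 9, 106475963 to 106485424, GRCm38), the protein specific to the U3 snoRNP that directs the early cuts, had 2121 and 1995 normalized counts in resistant replicates 1 and 2 and 1240 and 1453 in control replicates 1 and 2. Both resistant libraries were far above both controls. Rrp9 rose from 1347 ± 151 to 2058 ± 88.9 (SD, n = 2), a log2 difference of 0.62 ± 0.13 (adjusted p = 0.0262), or 1.53-fold. It was 0.57 without resistant replicate 1 (adjusted p = 0.246) and 0.66 without resistant replicate 2 (adjusted p = 0.162), fits that take the spread from the controls, and the call ended in both. Its exons overlap those of Parp3 by 20 bases on the opposite strand, and the sources used here do not state if reads were counted by strand.

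4 more small subunit factors had differences of 0.39 to 0.45 with groups that did not overlap. Wdr75, a subunit of the complex that links transcription to processing, had 3432 and 2664 normalized counts against 1980 and 2464 (0.45 ± 0.16, adjusted p = 0.126). Wdr43 of the same complex had 8023 and 7221 against 5244 and 5985 (0.44 ± 0.12, adjusted p = 0.0561). These WD-repeat proteins belong to the early processome.

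Bysl, bystin, which acts late on small subunit precursors, had 2252 and 1925 against 1301 and 1818 (0.44 ± 0.18, adjusted p = 0.165). Its exons overlap those of Ccnd3 by 361 bases on the opposite strand. Utp20, a large scaffold protein, had 2853 and 3006 against 2413 and 2070 (0.39 ± 0.12, adjusted p = 0.0879), with control replicate 2 the lowest library. Utp4 had 4931 and 4208 against 3404 and 4010 (0.30 ± 0.13, adjusted p = 0.194), also without overlap. Its partner in the same subcomplex, Utp15, overlapped widely, with 2986 and 2772 against 2524 and 3249 (0.01 ± 0.14, adjusted p = 0.984). Nop14 overlapped by a narrow margin, 5138 and 4286 against 3640 and 4365 (0.24 ± 0.14, adjusted p = 0.325), while its binding partner Noc4l was flat, 1756 and 1873 against 1809 and 1782 (0.01 ± 0.11, adjusted p = 0.953).

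Rrp12, an export and processing factor, varied most within a group: 1201 and 980 in resistant libraries, but 793 and 1463 in the controls. Its difference was 0.01 ± 0.27 (adjusted p = 0.987). When control replicate 1 was left out it was -0.43 (adjusted p = 0.0225), and when control replicate 2 was left out it was 0.45 (adjusted p = 0.0175), so its direction hung on which control was used. Nop9, a Pumilio-repeat protein, was the only 1 of the 40 with both resistant libraries below both controls, 1560 and 1607 against 1617 and 1688, by -0.06 ± 0.11 (adjusted p = 0.777). Exons of Nop9 overlap those of Cideb by 1136 bases on the opposite strand, at 22.1 normalized counts of Cideb or fewer per library. Of the 11 genes of this step, 1 rose (9.09%, against 5.32% of all tested genes) and 0 fell. Both resistant libraries lay above both controls in 6 (54.5%, against 28.4%). No test of the step was made. The median was 0.30, or 0.18 without control replicate 1 and 0.42 without control replicate 2.

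Large subunit processing held the other 2 calls. Ppan (ENSMUSG00000004100.12, chromosome 9, 20888175 to 20892178), peter pan, which is needed for early large subunit precursors, had 3784 and 3658 normalized counts in resistant replicates 1 and 2 and 2415 and 2672 in control replicates 1 and 2. Ppan rose from 2543 ± 181 to 3721 ± 89.3 (SD, n = 2), a log2 difference of 0.55 ± 0.11 (adjusted p = 0.0228), or 1.46-fold. Rrp1b (ENSMUSG00000058392.13, chromosome 17, 32036100 to 32062865), a nucleolar partner of nucleophosmin and of protein phosphatase 1, had 3486 and 3408 in resistant and 2420 and 2581 in control libraries, and rose by 0.46 ± 0.11 (adjusted p = 0.0351). For these 2 genes the pairs were tight and far apart.

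Both calls ended without either resistant library, at 0.53 and 0.57 for Ppan (adjusted p = 0.228 and 0.173) and 0.45 and 0.48 for Rrp1b (adjusted p = 0.334 and 0.272). That of Rrp1b also ended with values scaled to the library total (0.42, adjusted p = 0.052) and with a block for the replicate number (adjusted p = 0.102). Exons of Rrp1b overlap those of Hsf2bp by 54 bases on the opposite strand.

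3 other large subunit factors came near the threshold. Nop2, a methyltransferase of large subunit rRNA, had 5035 and 4874 against 3293 and 4104 (0.43 ± 0.13, adjusted p = 0.0823). Noc2l, which accompanies precursors out of the nucleolus, had 11762 and 11094 against 7862 and 9519 (0.40 ± 0.12, adjusted p = 0.0875). Bop1 had 2437 and 2497 against 1895 and 1831 (0.41 ± 0.11, adjusted p = 0.0578).

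Bop1, Pes1 and Wdr12 form a stable complex, but their transcripts differed by unequal amounts. Pes1, pescadillo, had 4510 and 4169 against 3695 and 4066 (0.16 ± 0.11, adjusted p = 0.397). Wdr12 overlapped, with 1984 and 1635 against 1501 and 1948 (0.08 ± 0.16, adjusted p = 0.816). No test of the difference between these 3 genes was made.

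Of the remaining large subunit genes, Nop16 did not overlap, with 2002 and 1879 against 1748 and 1687 (0.18 ± 0.11, adjusted p = 0.371). Rrs1, which brings the 5S particle into the precursor, had 2069 and 1731 against 1661 and 1903 (0.09 ± 0.14, adjusted p = 0.727). Noc3l was level in all 4 libraries, at 1431 and 1438 against 1437 and 1435 (-0.0016 ± 0.11, adjusted p = 0.995). In this step 2 of 10 rose (20%, against 5.32% of all tested genes) and 0 fell. Both resistant libraries lay above both controls in 7 (70%, against 28.4%). No test of the step was made. The median was 0.29, or 0.23 to 0.32 with 1 library left out.

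**Figure D3:**
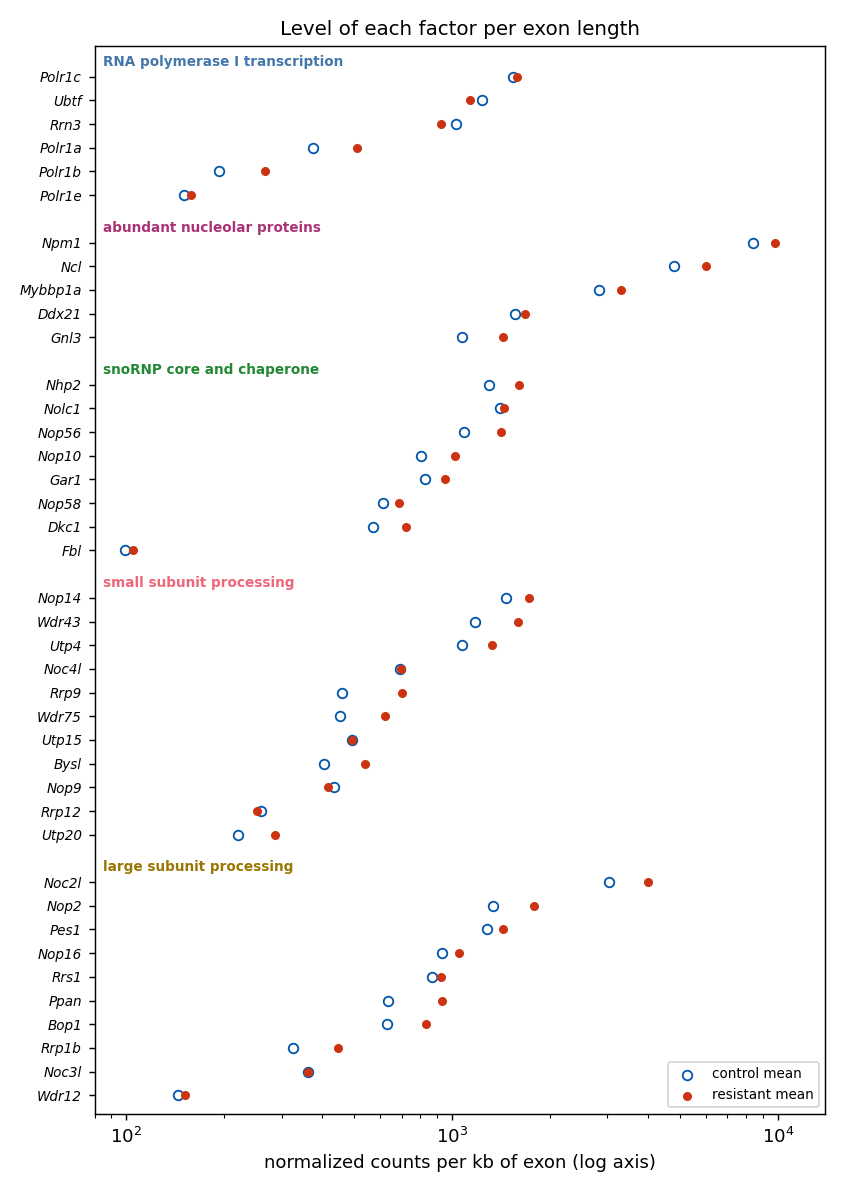
Mean level of each factor in normalized counts per kb of annotated exon (horizontal log axis), open circles for control and filled circles for resistant, 2 libraries each, ordered by step and level. Npm1 and Ncl are the highest at 9103 and 5399 over the 4 libraries and Fbl the lowest at 102.

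Among themselves, the 40 factors spanned 102 to 9103 normalized counts per kb of exon over the 4 libraries. After Npm1 and Ncl came Noc2l (3509), Mybbp1a (3068) and Ddx21 (1616). Polr1a (443) and Polr1b (230) were low beside Polr1c (1558), which serves 2 polymerases. Exon length here is the union over all annotated transcripts, so a gene with long rare transcripts, such as Wdr12 at 148, is understated. The standard deviation of the 40 log2 differences was 0.20, against a median SE of 0.13 for a single factor.

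The libraries of a group did not sit together, and within each group most factors were higher in the same library. By replicate number the offsets of the 2 groups ran in opposite directions. Resistant replicate 1 was above resistant replicate 2 in 32 of 40 factors, with a median log2 difference of 0.15, and control replicate 2 was above control replicate 1 in 32 of 40, with a median of 0.21. Over all tested genes both medians were -0.02. The median between the groups was 0.23. It compares means of 2 libraries, whereas each offset compares single libraries, so their sizes cannot be ranked directly. Library by library, the median over the 40 was 0.45 for resistant replicate 1 minus control replicate 1, with 36 above 0. It was 0.30 for resistant replicate 2 minus control replicate 1, again with 36 above 0, and 0.28 for resistant replicate 1 minus control replicate 2, with 31 above 0. For resistant replicate 2 minus control replicate 2 it was 0.07, with 26 above 0. These 4 comparisons share libraries.

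By step, the comparison of resistant replicate 2 with control replicate 2 gave medians of 0.00 for polymerase I, 0.07 for the abundant nucleolar proteins, 0.05 for snoRNP proteins, 0.07 for small subunit factors and 0.19 for large subunit factors. Values above 0 there numbered 3 of 6, 3 of 5, 5 of 8, 7 of 11 and 8 of 10 in the same order.

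**Figure D4:**
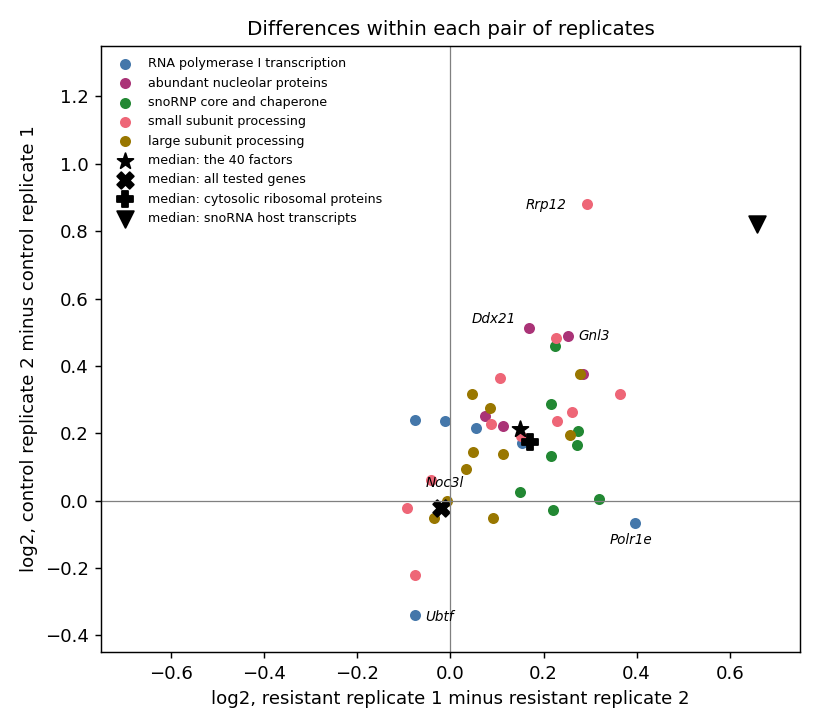
For each of the 40 factors, the log2 difference between the resistant replicates (horizontal axis, replicate 1 minus 2) and between the control replicates (vertical axis, replicate 2 minus 1), coloured by step. Most lie in the upper right, the median of the 40 is at 0.15 and 0.21, that of all tested genes at -0.02 and -0.02, and that of 10 snoRNA host transcripts at 0.66 and 0.82.

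The proliferation genes did not share 1 order of the libraries. The summed level of 8 of them (Mki67, Top2a, Ccnb1, Cdk1, Mcm2, Mcm3, Mcm5 and Pcna) was 54897 and 50536 normalized counts in resistant and 49811 and 63957 in control libraries. That sum is carried by Top2a and Mki67: control replicate 2 was the highest library for 3 of the 8 genes (Mki67, Top2a and Mcm3) and the lowest for Pcna. Between the groups 0 of 8 rose and 1 fell, the licensing gene Mcm3 (-0.47 ± 0.11, adjusted p = 0.0349). Their median difference was -0.02, and their part in the offsets of the ribosome factors was not tested.

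Transcripts that host snoRNAs in their introns, a list of long non-coding RNAs whose spliced products are short-lived, were offset far more. All 10 tested were higher in resistant replicate 1 than in resistant replicate 2 and higher in control replicate 2 than in control replicate 1, with medians of 0.66 and 0.82. Gas5 had 16830 and 7769 normalized counts in resistant and 9086 and 21707 in control libraries. Snhg12 had 5125 and 1616 against 1871 and 6486. The groups overlapped in 7 of the 10, and 0 were called. Gas5 and Snhg12 are named for their spread within the groups and were chosen after their values were seen.

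7 of the 40 factors host annotated snoRNA genes in their own bodies, 21 in all: 5 in Nop56, 4 in Nop58, 3 each in Ncl, Gnl3 and Wdr43, 2 in Ppan and 1 in Dkc1. These 21 snoRNA genes held 1 and 1 reads in the resistant and 3 and 4 in the control libraries. The libraries therefore did not measure the snoRNAs, and the values of the 7 hosts are those of their exons.

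Genes outside the 40 but in the same pathway had a smaller median difference. Of 127 tested ribosome biogenesis factors of a wider list, 4 rose and 0 fell, with a median log2 difference of 0.14 and 91 values above 0. That share, 3.15%, was below the 5.32% of all tested genes. Both resistant libraries lay above both controls in 58 of 127 (45.7%, against 28.4%). Within the groups their median offsets were 0.13 for resistant replicate 1 minus 2 and 0.11 for control replicate 2 minus 1. For resistant replicate 2 minus control replicate 2 the median of the 127 was 0.0053, with 64 above 0. The medians were -0.02 for 9 further polymerase I and promoter factors, 0.29 for 10 snoRNP assembly factors, 0.19 for 46 small subunit factors, 0.14 for 50 large subunit factors and 0.08 for 12 exosome subunits and nucleases. Of the 127, 0 rose when either resistant library was left out, 10 without control replicate 1 and 36 without control replicate 2.

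The 4 that rose are each tied to subunit processing. Nat10, the acetyltransferase of small subunit rRNA, had 3045 and 2790 normalized counts in resistant and 1846 and 2081 in control libraries (0.57 ± 0.12, adjusted p = 0.0261). Riok2, a kinase of late small subunit precursors, had 2239 and 1805 against 1350 and 1308 (0.60 ± 0.14, adjusted p = 0.0362). Tbl3, a processome WD-repeat protein, had 2419 and 2351 against 1603 and 1821 (0.48 ± 0.12, adjusted p = 0.0444).

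Brix1, a large subunit factor, had 4716 and 4028 against 2838 and 3106 (0.55 ± 0.12, adjusted p = 0.0312). All 4 calls ended without either resistant library and with no filter on low values, and that of Tbl3 also with scaling to the library total and with the replicate block. Myc itself rose, with 11654 and 12057 against 6768 and 8683 (0.63 ± 0.14, adjusted p = 0.0298). Other tested genes starting within 5 Mb had a median difference of 0.40 around Myc, so Myc was above its neighbours by 0.23. That median was 0.50 around Riok2, 0.32 around Brix1, 0.32 around Tbl3 and 0.07 around Nat10. Riok2, Brix1, Tbl3 and Nat10 were above theirs by 0.10, 0.23, 0.16 and 0.50. The call of Myc ended without resistant replicate 1 (0.65, adjusted p = 0.145) or resistant replicate 2 (0.60, adjusted p = 0.181), and with no filter on low values (adjusted p = 0.127).

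Ribosomal proteins, the cargo of this pathway, had smaller median differences, with shares of calls below the 5.32% higher and 4.73% lower of all tested genes. Of 81 tested cytosolic ribosomal protein genes, 3 rose and 0 fell, with a median of 0.08 and 53 values above 0, and both resistant libraries lay above both controls in 24.7%. Of 77 mitochondrial ribosomal protein genes, whose ribosomes are assembled outside the nucleolus, 2 rose and 1 fell, with a median of 0.04 and 46 above 0, and both resistant libraries lay above both controls in 40.3%, against 28.4% of all tested genes. The cytosolic ribosomal proteins shared the offsets within the groups, with medians of 0.17 for resistant replicate 1 minus 2 and 0.17 for control replicate 2 minus 1. The mitochondrial ones had 0.11 and 0.04. No test between these lists was made. Many cytosolic ribosomal protein genes have processed pseudogenes with which reads can be shared.

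**Figure D5:**
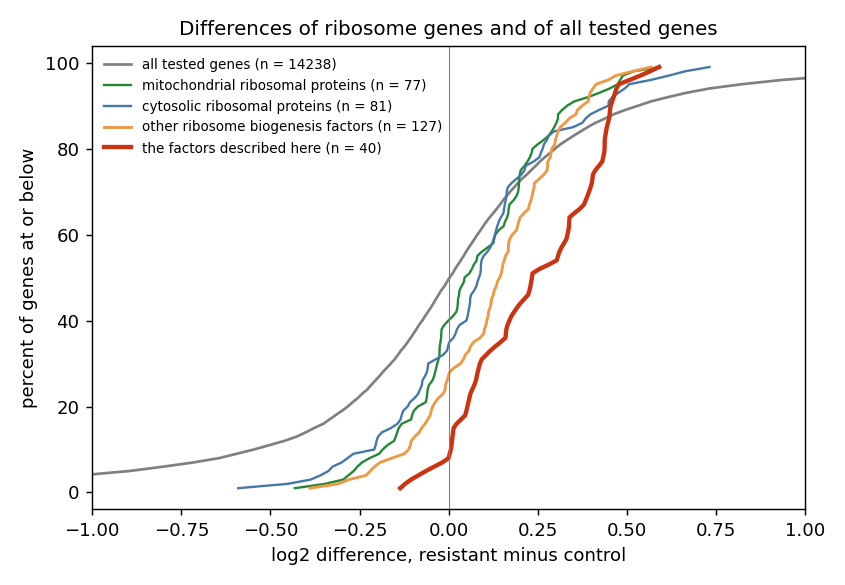
Cumulative distribution (percentiles 1 to 99) of the log2 difference, resistant minus control, for the 40 factors, 127 other ribosome biogenesis factors, 81 cytosolic and 77 mitochondrial ribosomal protein genes and all 14238 tested genes. The curve of the 40 lies to the right of the others up to its median of 0.23, but does not reach the far right tail of all genes.

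The 40 factors lie on 18 chromosomes, and their difference was mostly above that of their neighbours. The median of the other tested genes starting within 5 Mb, 21 to 228 genes per factor, ran from -0.23 around Nolc1 to 0.40 around Nop10. In 36 of 40 cases the factor was above the median of its window, by 0.27 at the median. Rrp9 (window 0.13), Ppan (0.16) and Rrp1b (0.01) were above theirs by 0.48, 0.39 and 0.46. Nop10 was 0.07 below its window, so its difference of 0.34 was no larger than that of its neighbourhood. Polr1a exceeded its window of 0.29 by 0.16.

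Reads of some factors can be shared with other genes. 5 of the 40 had over 20 percent of their 50-base stretches in transcripts of another gene: Fbl (73.0%), Npm1 (40.9%), Nop56 (37.6%), Nop9 (28.6%) and Pes1 (24.1%). For Nop9 these came from Cideb, which its exons overlap. In the 31 factors with less than 5 percent shared, the median difference was 0.30, 3 rose and 28 were above 0. Exons of 17 factors overlap those of another gene, 16 of them on the opposite strand and Ncl with a microRNA gene on the same strand.

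Promoter sequences were taken from RefSeq for GRCm38.p6, the C57BL/6J reference and not Balb/c, as windows from 250 bases before to 50 bases after each annotated start. 35 of the 40 factors had a window. They were richer in CG dinucleotides than most promoters, with a median of 23 in the window against 7 over 27025 genes, and a GC content of 59.7% against 52.8%. The promoters of the 2 factors with the smallest p, Ppan and Rrp9, are shown here 5′ to 3′ over the 250 bases before the start, with each CG in capitals. Ppan is at chr9:20887925-20888174 and Rrp9 at chr9:106477059-106477308, both on the plus strand. For Rrp9 the RefSeq start used differs from the GENCODE start of 106475963, and the bases shown lie inside the GENCODE span of the gene.
Ppan: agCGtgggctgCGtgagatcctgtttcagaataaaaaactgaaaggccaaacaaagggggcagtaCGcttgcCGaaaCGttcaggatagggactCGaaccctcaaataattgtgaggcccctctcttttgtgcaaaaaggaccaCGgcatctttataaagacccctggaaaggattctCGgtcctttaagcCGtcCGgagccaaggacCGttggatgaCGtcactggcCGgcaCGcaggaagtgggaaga
Rrp9: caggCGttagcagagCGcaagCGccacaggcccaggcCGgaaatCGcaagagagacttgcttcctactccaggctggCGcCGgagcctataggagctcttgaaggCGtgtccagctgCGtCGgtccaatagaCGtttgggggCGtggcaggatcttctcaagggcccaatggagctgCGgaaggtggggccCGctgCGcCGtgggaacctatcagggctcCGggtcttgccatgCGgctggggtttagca
The stretch of Ppan holds 14 CG dinucleotides at a GC content of 52.0%, and that of Rrp9 holds 18 at 63.6%.

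The E-box CACGTG, the letters that Myc and Max bind and which read the same on both strands, was searched for in the same windows. It occurred in 7 of 35 factors, against 8.09% of all genes in the table. The 7 were Mybbp1a, Nop2, Pes1, Rrn3, Utp20, Utp4 and Wdr43, and none of the 3 factors that rose held it in this window. The sites of these 7 are shown in 30 bases each, 5′ to 3′ on the gene's strand with the E-box in capitals.
Nop2: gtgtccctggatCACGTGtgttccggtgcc
Rrn3 site 1: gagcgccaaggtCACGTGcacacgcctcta
Rrn3 site 2: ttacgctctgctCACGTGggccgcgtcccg
Pes1: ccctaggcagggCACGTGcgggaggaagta
Utp4: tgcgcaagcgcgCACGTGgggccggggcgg
Wdr43: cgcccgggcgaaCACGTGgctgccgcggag
Utp20: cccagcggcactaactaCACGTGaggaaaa
Mybbp1a: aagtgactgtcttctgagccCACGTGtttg
The shown bases are chr6:125131811-125131840 for Nop2, chr16:13780472-13780501 and chr16:13780639-13780668 for Rrn3, chr11:3963965-3963994 for Pes1, chr8:106893643-106893672 for Utp4, chr17:71616220-71616249 for Wdr43, chr10:88826765-88826794 on the minus strand for Utp20 and chr11:72441347-72441376 for Mybbp1a. Counted from the start as base 1, the E-box began at 3 in Pes1, 16 in Utp4, 18 in Wdr43, 38 in Utp20 and 41 in Mybbp1a, and before the start at -60 in Nop2 and at -215 and -48 in Rrn3. The fitted log2 differences of these 7 ran from -0.15 for Rrn3 to 0.44 for Wdr43, which spans most of the range of the 40. The letters CGCGAG or CTCGCG, which are reverse complements of each other, occurred in 12 of 35 factors (34.3%) and in 12.3% of all genes. All of these letters contain a CG, and the windows of the factors held more CG dinucleotides than those of all genes. The shares were not adjusted for this, and the genes compared were not limited to those tested. A match is a string of letters in a window and not a measured binding site.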

How the data were processed

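RNA was sequenced from 2 resistant and 2 control samples. The authors deposited 1 table of log2 values for 55385 genes, with STAR, DESeq2 and mm10 named in the submitters' processing notes without versions or settings. From the values, the deposited log2 scale is that of normalized counts with a pseudocount of 1: undoing it returned whole reads for 100% of values, at a tolerance of 0.01 reads. Reads, and so depth, come from these steps.

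Groups come from the source labels and columns from titles. Identifiers matched GENCODE M21 (GRCm38, that is mm10) without version for 55144 genes. After dropping genes averaging under 10 normalized counts, limma 3.58.1 (R 4.3.3) was used (trend, no block, two-sided) on the deposited values, with Benjamini-Hochberg adjustment over 14238 genes and a threshold of 0.05. Fold changes on this scale, with its pseudocount of 1, slightly understate low genes. Alternatives were other pseudocounts, filters and scalings, robust moderation, limma voom on the recovered reads, a replicate block and leaving out each library. All members are named, others by smallest p among called genes of each list. Members and lists were chosen with earlier results of these data known. Numbers in the labels do not say that samples pair: deviations of same-numbered samples correlated at r = -0.36 across genes. Of the biogenesis and host lists, 3 host transcripts had no matching symbol, and 3 genes were below the filter.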

Additional observations from a re-analysis of the deposited data

How the results depend on the processing

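With pseudocounts of 0.5 or 10, a mean of at least 50, robust moderation, limma voom, either other scaling or the replicate block, 2 to 4 factors rose and 0 fell, and the median of the 40 stayed between 0.19 and 0.23. Over all tested genes, 611 (of 11848, mean of at least 50) to 770 (of 14238, pseudocount of 10) rose in these settings. With no filter on low values, 0 of the 40 rose, and 126 of 26782 genes rose and 185 fell. Scaling to the library total moved the median of all tested genes from 0.00 to -0.04 and turned Utp15 (-0.033), Noc4l (-0.026) and Rrp12 (-0.03). It left 17 of 40 factors with both resistant libraries above both controls. The share of all tested genes in that order under this scaling is not given here, so the 17 has no background beside it. Scaling to the upper quartile turned Utp15 (-0.0025). With the replicate block 2 factors rose, and the call of Rrp1b ended. A crossed block, added after seeing the data, paired resistant replicate 1 with control replicate 2 and resistant replicate 2 with control replicate 1. The labels do not give this pairing. With it 20 of the 40 factors rose and 0 fell, while over all 14238 tested genes calls went from 758 to 2402 higher and from 674 to 2182 lower. A pairing picked from the same data can shrink the spread, so these calls are no support for a rise. Leaving out 1 library, which leaves a group of 1 assumed to vary like the other group, gave 0 to 22 factors higher and 0 to 1 lower, a median of 0.16 to 0.37, and 146 to 2074 genes higher and 234 to 1993 lower over all genes. The sign turned in some of these fits for Polr1c (-0.062 to 0.15), Polr1e (-0.14 to 0.25), Ubtf (-0.28 to 0.055), Ddx21 (-0.14 to 0.38), Fbl (-0.03 to 0.19), Nolc1 (-0.17 to 0.29), Utp15 (-0.18 to 0.19), Noc4l (-0.032 to 0.061), Rrp12 (-0.43 to 0.45), Wdr12 (-0.11 to 0.26), Rrs1 (-0.038 to 0.22) and Noc3l (-0.0054 to 0.0022). The cause was not tested.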
